A study of Mus musculus with 4 samples.

Results

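The genes described here are 35 mouse genes of cholesterol and fatty acid synthesis, with the SREBP (sterol regulatory element binding protein) system that controls them, a sterol carrier and a pair of sterol efflux transporters. They were selected on their known roles, with the expression differences among these same libraries already in view, so the values below describe the genes and are not evidence for the choice. All 35 were found by symbol among the 17630 genes listed in each library. Cholesterol is built from acetyl-CoA through mevalonate, isoprenoid diphosphates, squalene and lanosterol, and palmitate is built from the same precursor through malonyl-CoA and then elongated or desaturated. When sterols are low in the endoplasmic reticulum, SCAP carries the SREBP precursors to the Golgi, where they are cut into active transcription factors, and INSIG proteins hold SCAP back when sterols are plentiful. Mammary epithelium is known for a strong rise of this program at lactation, when secretory luminal cells make milk fat.

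The study asked how sympathetic nerve signals act on mouse mammary basal cells, the outer epithelial layer that holds the mammary stem cells. RNA was sequenced from basal cells sorted by flow cytometry and from colonies that such cells formed in Matrigel, a basement membrane gel. All cells had the genotype WT, and the strain, age and number of mice behind each library are not given in the labels. The sorted control came from mice with no treatment, and the sorted 6-OHDA library came from mice given 6-hydroxydopamine, a toxin that destroys peripheral sympathetic nerve endings throughout the animal and not in the mammary gland alone. The control colonies were grown without agonist, and the SP colonies with salbutamol and phenylephrine, which activate beta and alpha adrenergic receptors respectively. The titles of the colony libraries carry the numbers 0 and 200 with no unit. Colonies were grown in a medium with epidermal growth factor and insulin, so a colony differs from a sorted cell in much besides SP. There was 1 library per condition and thus no replicate, so values and differences are given as they stand, with no test.

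Values are FPKM, fragments scaled by transcript length and by all fragments of the library, and a log2 difference is log2(FPKM + 1) in the first library minus that in the second, which understates the change of genes with low values. A value of 1 FPKM on 1 kilobase of transcript stood for roughly 15.4 to 18.9 fragments over all 4 libraries, estimated from the steps between low values of genes with a single transcript. Depth was thus similar among the libraries, and values near 1 FPKM rest on few fragments.

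Transcripts of other cell types were found beside those of basal cells. Of the 10 basal markers, all were above 0 in every library, and Krt14, a basal keratin, led them at 3595, 2633, 3298 and 6919.9 FPKM in the order sorted control, sorted 6-OHDA, control colonies and SP colonies. The contractile markers Myh11, Cnn1 and Mylk were far lower in colonies, with Myh11 at 467 and 449 FPKM in the sorted control and 6-OHDA libraries, and 11.2 and 21.4 FPKM in the control and SP colonies. The 10 endothelial markers summed to 342 and 345 FPKM in the sorted libraries, led by Pecam1 at 107 and 93.0, although basal cells are sorted as negative for its protein, CD31, and to 12.4 and 3.43 FPKM in the colonies. Salivary transcripts set the 6-OHDA library apart from the other libraries. The 8 salivary acinar markers summed to 15192 FPKM there against 5.73 in the sorted control, and Bpifa2, a secreted salivary protein, was listed at 0 in the control and at 7277 FPKM after 6-OHDA. Of the 6 compared, 5 were higher by more than 1 on the log2 scale, beside 1.05% of all genes. The rest of the list stayed low in the sorted control and 6-OHDA libraries. Aqp5 was at 3.46 and 4.74 FPKM there, Bhlha15 at 0.97 and 0.87 and Prol1 at 0 and 0.20. All results for the 6-OHDA comparison rest on that library.

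Each of the 35 genes was above 0 in every library, and the levels separated the sorted cells from the colonies. Together they summed to 529 FPKM in the sorted control, 544 in the 6-OHDA library, 1682 in control colonies and 2753 in SP colonies. As a share of all FPKM this was 0.104%, 0.105%, 0.291% and 0.468% in the same order. The 18 sterol enzymes alone summed to 222, 241, 682 and 1488 FPKM, and the 10 fatty acid enzymes to 178, 175, 758 and 1047 FPKM. The sterol enzymes thus more than doubled their summed level from control to SP colonies, and the fatty acid enzymes were higher by a smaller factor. Per kilobase, the most abundant of the 35 was Fasn in the sorted control, Sqle in the 6-OHDA library and Scd2 in both kinds of colonies. The lowest level in the sorted control was that of Tm7sf2, and in SP colonies that of Abcg1.

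**Figure D1:**
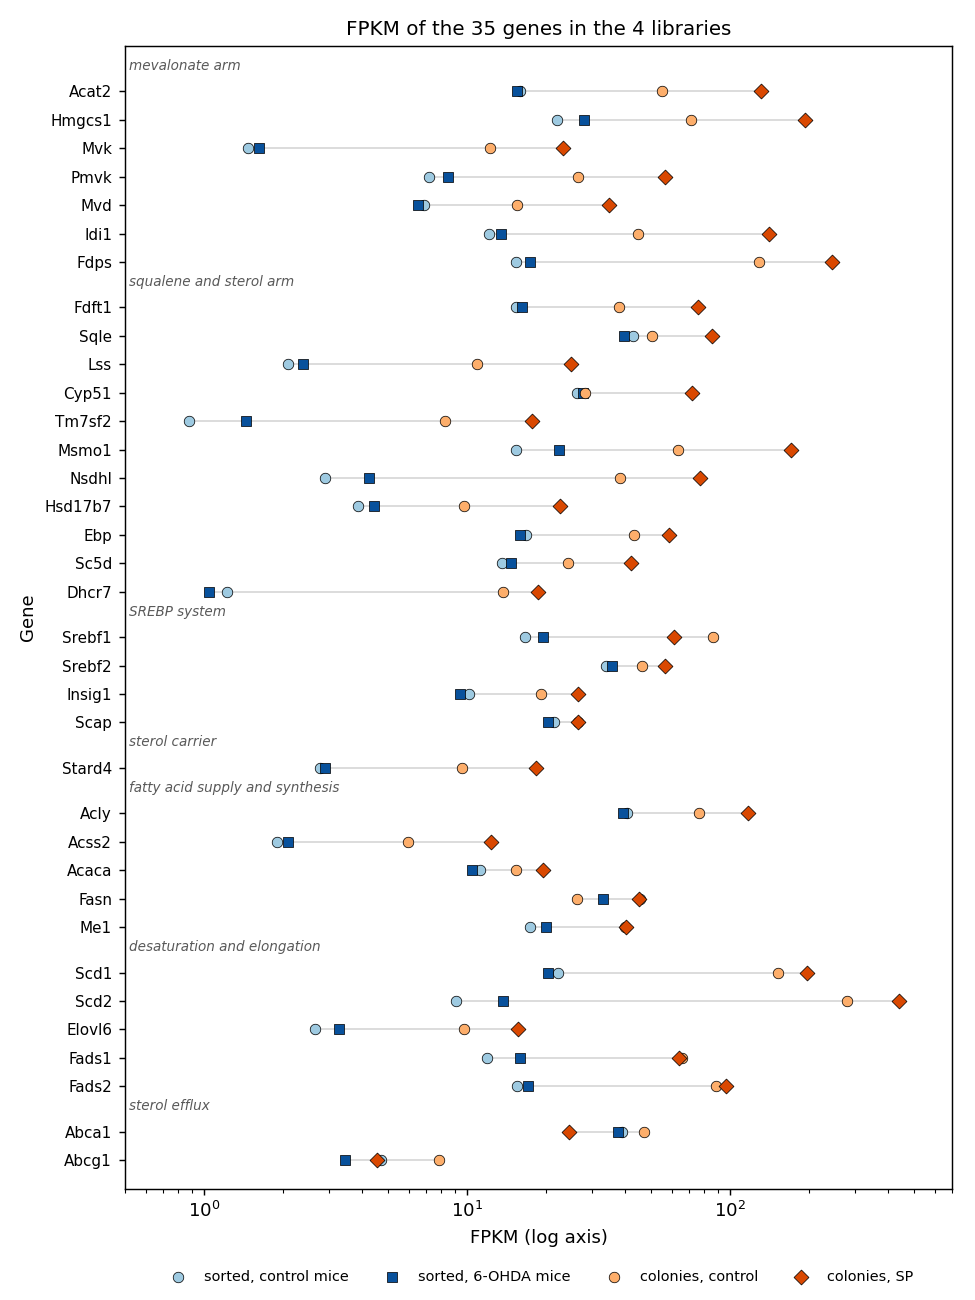
FPKM (log axis) of each of the 35 genes, grouped by role, in the 4 libraries, with 1 point per library and no error bar since each condition has 1 library. The orange points of the colonies lie to the right of the blue points of the sorted cells for most genes, most widely for Scd2 (9.07 FPKM in the sorted control and 278 in control colonies), while Fasn, Abca1 and Abcg1 overlap.

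Genes were compared between 2 libraries where their mean FPKM over both was at least 1, and all 35 passed in each of the 3 comparisons. In SP colonies against control colonies, 27 of the 35 genes were higher by more than 0.3 on the log2 scale and 3 were lower, while 11.7% of the 11849 genes compared were higher and 19.8% lower. The median difference was 0.76 for the 35 genes and -0.066 for all genes. A difference above 1 was found for 10 of the 35, beside 2% of all genes, and each of the 10 was a sterol enzyme. The 3 lower genes were Srebf1, Abca1 and Abcg1.

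In sorted cells from 6-OHDA mice against sorted control cells, 6 of the 35 genes were higher and 2 were lower by more than 0.3, where 15.8% of 11749 genes were higher and 8.35% lower. The medians were 0.085 for the 35 genes and 0.055 for all genes. The 6 higher genes were Hmgcs1, Tm7sf2, Msmo1, Nsdhl, Scd2 and Fads1, and the 2 lower ones were Fasn and Abcg1. With a pseudocount of 5, the counts were 3 higher and 1 lower, beside 6.84% and 4.59% of all genes.

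In control colonies against the sorted control, 30 of the 35 genes were higher and 1, Fasn, was lower, where 55.7% of 12244 genes were higher and 26.6% lower. The median was 1.49 for the 35 genes and 0.45 for all genes, an upward shift of FPKM in colonies. Scaling by the median ratio of the genes compared removed that shift, with 40.0% of all genes higher and 39.6% lower. Relative to that shift of 0.45, 29 of the 35 genes lay above the median of all genes and 6 below it, and the median of the 35 was 1.04. Differences above 1 were found for 24 of the 35, beside 30.7% of all genes. The control colonies enter both this comparison and that with SP, and the sorted control enters both this one and that with 6-OHDA, so the comparisons are not independent of each other. Because these contrasts were in view when the genes were chosen, nothing is read from the counts beside the shares of all genes.

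The balance of all genes depended on the scaling of the libraries. Of the genes past 0.3 in either direction, 65.4% were higher after 6-OHDA, 37.1% with SP and 67.7% in control colonies against sorted cells. Scaling by the median ratio of the genes compared gave 50.5%, 49.9% and 50.2%. Under the same scaling the 35 genes gave 5 higher and 2 lower after 6-OHDA (beside 11.7% and 11.5% of all genes), 28 and 3 with SP (14.8% and 14.8%), and 27 and 2 in control colonies (40.0% and 39.6%).

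**Figure D2:**
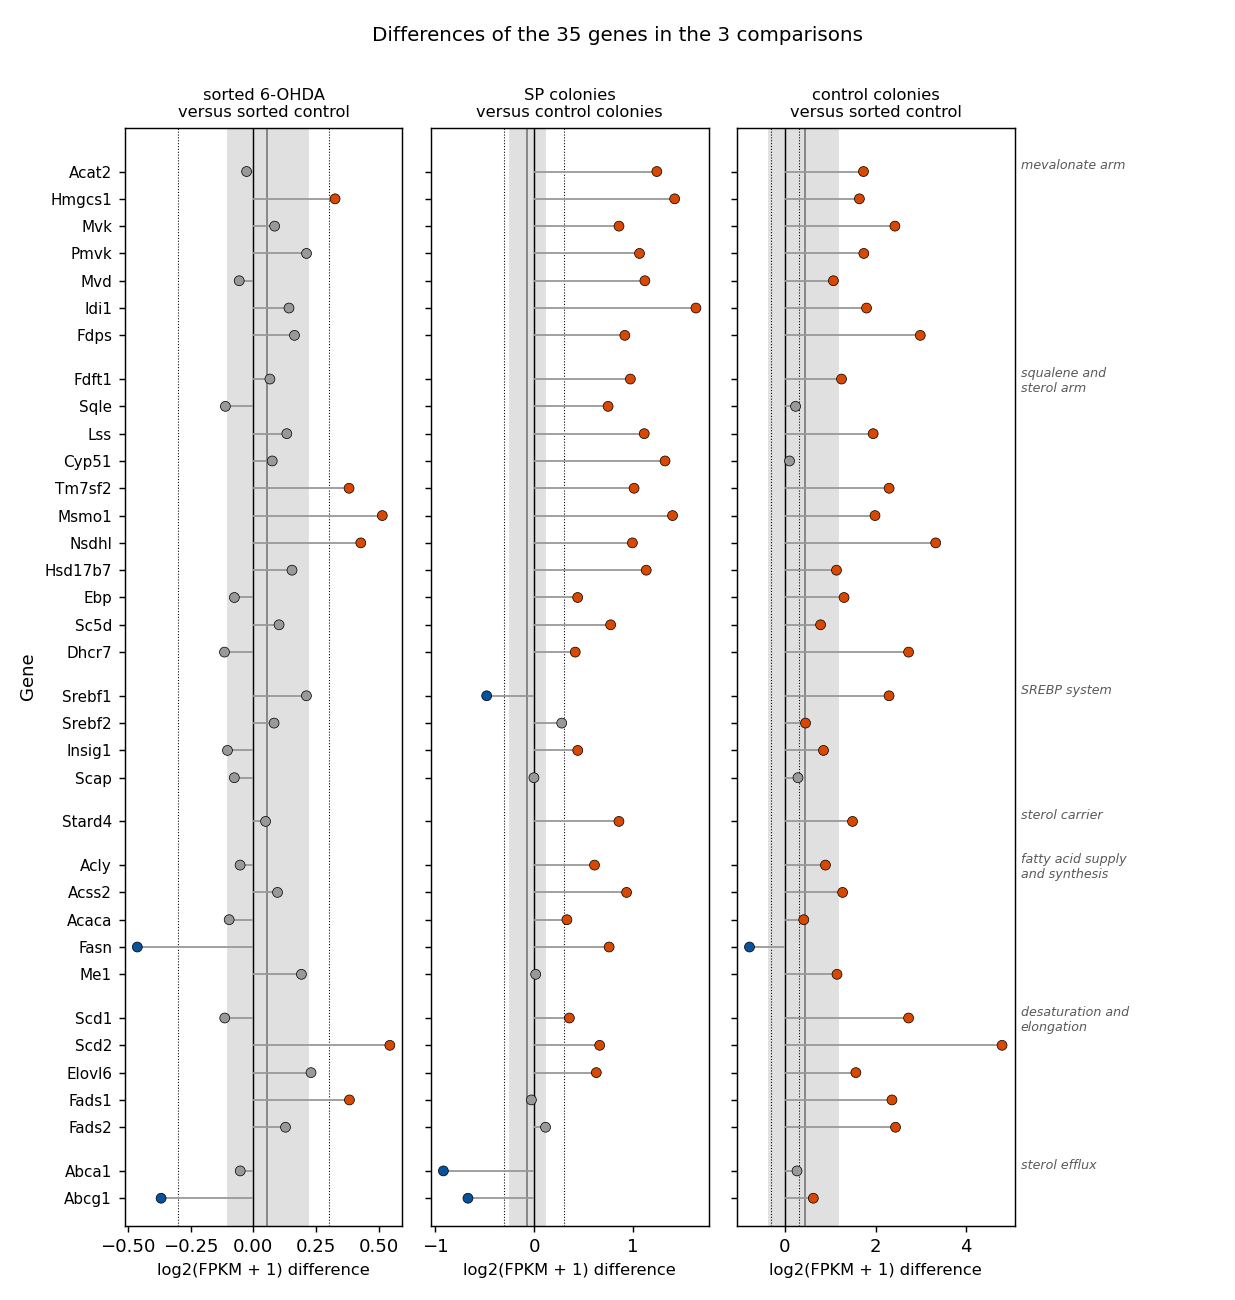
Differences in log2(FPKM + 1) of the 35 genes, in the gene order of the plot of levels, with a panel per comparison whose horizontal scales differ. Points are orange above 0.3, blue below -0.3 and gray between these dotted lines, the gray band runs from the lower to the upper quartile of all genes compared and the gray line is their median. With SP all 18 sterol enzymes lie right of the dotted line, while Srebf1 (-0.48), Abca1 (-0.92) and Abcg1 (-0.67) lie left of it.

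The 7 genes of the mevalonate arm turn acetyl-CoA into farnesyl diphosphate, and all 7 were higher in SP colonies, by 0.86 to 1.64. Idi1, the isomerase that makes dimethylallyl diphosphate, was at 12.1 FPKM in the sorted control library, 13.5 after 6-OHDA, 44.7 in control colonies and 141 in SP colonies. Its SP colonies held 3.16 times the FPKM of control colonies, a log2 difference of 1.64 that 78 of all genes compared exceeded. Hmgcs1, the synthase that condenses acetyl-CoA with acetoacetyl-CoA into HMG-CoA, was at 22.1 and 28.0 FPKM in the sorted control and 6-OHDA libraries, and 71.1 and 192 FPKM in the control and SP colonies. The SP value was 2.71 times that of control colonies, and both colony libraries lay above both sorted libraries. Acat2, the cytosolic thiolase that opens the pathway, was at 15.9 and 15.6 FPKM in the sorted control and 6-OHDA libraries, and 55.1 and 132 FPKM in the control and SP colonies. Its sorted values were nearly equal and its colony values rose stepwise, with a log2 difference of 1.24 for SP.

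Fdps, which joins isoprenoid units into farnesyl diphosphate, had the highest level of the arm in both kinds of colonies, at 15.3 FPKM in the sorted control library, 17.3 after 6-OHDA, 128 in control colonies and 244 in SP colonies. Most of its range lay between sorted cells and colonies, a log2 difference of 2.99, against 0.92 for SP. Mvd, the decarboxylase that yields isopentenyl diphosphate, was at 6.84 and 6.54 FPKM in the sorted control and 6-OHDA libraries, and 15.4 and 34.8 FPKM in the control and SP colonies. Here the steps from sorted cells to control colonies (1.07) and from those to SP colonies (1.12) were about equal. Relative to the median of all genes in each comparison, they were 0.62 and 1.19. The kinases Mvk and Pmvk, which phosphorylate mevalonate in turn, differed by 0.86 and 1.07 with SP and by 2.43 and 1.74 in culture. Mvk stood at 1.47 and 1.62 FPKM in the sorted control and 6-OHDA libraries, and 12.3 and 23.1 FPKM in the control and SP colonies, and few fragments stand behind its sorted values, while Pmvk was at 7.20, 8.50, 26.4 and 56.4 FPKM in the same order. After 6-OHDA, the differences of the 7 genes ran from -0.056 for Mvd to 0.33 for Hmgcs1, the only one past 0.3, and Hmgcs1 passed it under 3 of 6 other scalings and pseudocounts.

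The 11 genes of the squalene and sterol arm carry farnesyl diphosphate to cholesterol, and all 11 were higher in SP colonies, by 0.42 to 1.40. Msmo1, an oxidase that removes methyl groups from lanosterol derivatives, was at 15.3 FPKM in the sorted control library, 22.3 after 6-OHDA, 63.7 in control colonies and 169.9 in SP colonies. Its log2 differences were 0.51 for 6-OHDA, 1.40 for SP and 1.99 for culture, and only Msmo1, Nsdhl and Tm7sf2 of this arm were past 0.3 in all 3 comparisons. Nsdhl, the dehydrogenase that acts with it, was at 2.90 and 4.25 FPKM in the sorted control and 6-OHDA libraries, and 38.1 and 77.0 FPKM in the control and SP colonies. Tm7sf2, a sterol reductase, was at 0.88 and 1.45 FPKM in the sorted control and 6-OHDA libraries, and 8.25 and 17.7 FPKM in the control and SP colonies. The 6-OHDA differences of Nsdhl (0.43) and Tm7sf2 (0.38) rest on sorted values below 5 FPKM, and both were under 0.3 with a pseudocount of 5, as was that of Tm7sf2 with quantile normalization.

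Cyp51 and Sqle followed another order. Cyp51, the lanosterol demethylase, was at 26.2 FPKM in the sorted control library, 27.6 after 6-OHDA, 28.1 in control colonies and 72.0 in SP colonies. Its first 3 values were close together and the SP library alone was high, at 2.56 times control colonies. Sqle, the squalene epoxidase and a rate-limiting step after HMG-CoA reduction, was at 42.7 and 39.5 FPKM in the sorted control and 6-OHDA libraries, and 50.4 and 85.5 FPKM in the control and SP colonies. It was the most abundant sterol enzyme of sorted cells and differed by 0.23 in control colonies, below the shift of all genes, and by 0.75 with SP.

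Fdft1 (squalene synthase), Lss (lanosterol synthase) and Hsd17b7 (a sterol ketone reductase) were higher with SP by 0.97, 1.12 and 1.14. Lss was at 2.09 and 2.39 FPKM in the sorted control and 6-OHDA libraries, and 10.9 and 24.8 FPKM in the control and SP colonies, and in the same order Fdft1 was at 15.4, 16.2, 37.9 and 75.5 FPKM and Hsd17b7 at 3.87, 4.42, 9.71 and 22.5 FPKM. For the last enzymes of the pathway the SP differences were smaller, at 0.78 for the desaturase Sc5d, 0.44 for the isomerase Ebp and 0.42 for Dhcr7, which makes cholesterol from 7-dehydrocholesterol. Dhcr7 was at 1.22 FPKM in the sorted control library, 1.05 after 6-OHDA, 13.7 in control colonies and 18.6 in SP colonies, and in the same order Sc5d was at 13.6, 14.7, 24.2 and 42.2 FPKM and Ebp at 16.8, 15.9, 43.0 and 58.8 FPKM. Nearly all of the range of Dhcr7 lay between sorted cells and colonies, a log2 difference of 2.73. In the annotation 4 of the 35 genes overlap another protein-coding gene. Fdft1 overlaps Ctsb, a protease gene at 306, 292, 326 and 336 FPKM in the same order of libraries. Tm7sf2 overlaps Vps51, at 6.07, 6.54, 12.8 and 11.1 FPKM. Some reads of these pairs could therefore be hard to tell apart, which was not tested. The same holds for Srebf1 with Rai1, at 10.5, 10.1, 14.6 and 12.4 FPKM, and for Acaca with Tada2a, at 5.31, 6.06, 15.3 and 16.8 FPKM.

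The 4 genes of the SREBP system did not move alike, with 1 higher, 1 lower and 2 within 0.3 in SP colonies. Srebf1 encodes SREBP-1, the factor best known for fatty acid synthesis genes, and was at 16.7 FPKM in the sorted control library, 19.5 after 6-OHDA, 86.0 in control colonies and 61.4 in SP colonies. It was 5.15 times higher in control colonies than in sorted cells and lower in SP colonies, with a log2 difference of -0.48 that stayed between -0.51 and -0.41 under 6 other scalings and pseudocounts. Srebf2 encodes SREBP-2, the main factor for sterol genes, and was at 33.7 and 35.7 FPKM in the sorted control and 6-OHDA libraries, and 46.5 and 56.7 FPKM in the control and SP colonies. Its SP difference was 0.28, just under 0.3, and 0.35 with median ratio scaling, and its culture difference of 0.45 equaled the shift of all genes and became -0.041 with median ratio scaling. The ratio of Srebf1 to Srebf2 per kilobase was 0.50 in the sorted control, 0.55 after 6-OHDA, 1.85 in control colonies and 1.08 in SP colonies. Srebf2 was thus the more abundant of the pair in sorted cells and Srebf1 in colonies.

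Insig1, a sterol-dependent anchor of SCAP and itself an SREBP target, was at 10.2 and 9.39 FPKM in the sorted control and 6-OHDA libraries, and 19.1 and 26.3 FPKM in the control and SP colonies. It was higher with SP by 0.44. Scap, the escort protein, was at 21.5 FPKM in the sorted control library, 20.3 after 6-OHDA, 26.4 in control colonies and 26.4 in SP colonies. Its colony values were nearly equal, and both lay a little above the sorted values. Relative to the median of all genes, the culture difference of Scap was -0.16. Stard4, a cytosolic sterol carrier, was at 2.77 and 2.90 FPKM in the sorted control and 6-OHDA libraries, and 9.60 and 18.2 FPKM in the control and SP colonies, and its differences of 0.86 for SP and 1.49 for culture were of the size seen for sterol enzymes.

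The 5 genes that supply acetyl-CoA or NADPH and make palmitate were higher in SP colonies in 4 cases. Fasn, the fatty acid synthase, was at 45.6 FPKM in the sorted control library, 32.8 after 6-OHDA, 26.1 in control colonies and 44.9 in SP colonies. It was the only one of the 35 genes with a lower FPKM in control colonies than in sorted cells (-0.78), joined past -0.3 by Cyp51 under median ratio scaling. It was lower after 6-OHDA (-0.46). In SP colonies it was higher than in control colonies (0.76), at an FPKM near that of the sorted control. Relative to the median of all genes, its culture and SP differences were -1.23 and 0.83. Acly, which splits citrate into acetyl-CoA, was at 40.6 and 39.1 FPKM in the sorted control and 6-OHDA libraries, and 76.3 and 117 FPKM in the control and SP colonies. Acss2, which makes acetyl-CoA from acetate, was at 1.89 FPKM in the sorted control library, 2.09 after 6-OHDA, 5.98 in control colonies and 12.4 in SP colonies. Acly was higher in SP colonies by 0.61 and Acss2 by 0.94, while neither moved past 0.3 after 6-OHDA.

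Acaca, the carboxylase that makes malonyl-CoA, was at 11.2 and 10.4 FPKM in the sorted control and 6-OHDA libraries, and 15.3 and 19.5 FPKM in the control and SP colonies. Its SP difference of 0.33 lay near the threshold, and its culture difference of 0.42 was below the shift of all genes and became -0.056 with median ratio scaling and -0.018 with quantile normalization. Me1, the malic enzyme that supplies NADPH, was at 17.4 FPKM in the sorted control library, 20.0 after 6-OHDA, 39.8 in control colonies and 40.3 in SP colonies. The colony values of Me1 were nearly equal, and both were above the sorted values.

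Desaturation and elongation genes showed the widest gap between sorted cells and colonies. Scd2, a stearoyl-CoA desaturase, was at 9.07 FPKM in the sorted control library, 13.7 after 6-OHDA, 278 in control colonies and 441 in SP colonies. Control colonies held 30.6 times the FPKM of the sorted control, and 28 of the 12244 genes compared had a larger rise. It was also higher after 6-OHDA (0.54) and with SP (0.66). Scd1, its close relative, was at 22.2 and 20.4 FPKM in the sorted control and 6-OHDA libraries, and 153 and 196 FPKM in the control and SP colonies. Of the summed FPKM of the pair, Scd1 made up 71.0% in the sorted control, 59.9% after 6-OHDA, 35.5% in control colonies and 30.8% in SP colonies. The 2 desaturases lie near each other at chr19:44293676-44306864 (Scd2) and chr19:44394450-44407709 (Scd1), and since they are similar in sequence some of their fragments could have been assigned to the wrong copy.

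Elovl6, which elongates palmitate to stearate, was at 2.64 and 3.27 FPKM in the sorted control and 6-OHDA libraries, and 9.77 and 15.7 FPKM in the control and SP colonies. It was higher with SP by 0.63. Fads1 and Fads2, the desaturases of polyunsaturated fatty acids, were at 65.5 and 88.8 FPKM in control colonies and 64.3 and 96.3 in SP colonies. Both were thus near 0 in their SP differences (-0.027 and 0.12) while both were higher in control colonies than in sorted cells (2.36 and 2.44). Fads1 was higher after 6-OHDA, at 15.9 against 11.9 FPKM, and Fads2 was at 17.1 against 15.5. Fads3, which lies beside them at chr19:10040855-10060113 and is not one of the 35 genes, was at 14.0 and 14.4 FPKM in the sorted control and 6-OHDA libraries, and 22.4 and 45.6 FPKM in the control and SP colonies, higher with SP by 0.99.

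The efflux transporters went the other way from the enzymes in SP colonies. Abca1, which loads cholesterol onto lipid-poor apolipoprotein and is switched on by LXR, a sterol-sensing nuclear receptor, was at 39.0 FPKM in the sorted control library, 37.6 after 6-OHDA, 47.1 in control colonies and 24.5 in SP colonies. Its SP colonies had the lowest value of the 4 libraries, a log2 difference of -0.92, and 220 of the 11849 genes fell further. Abcg1, which passes cholesterol to lipoprotein particles and is another LXR target, was at 4.73 and 3.44 FPKM in the sorted control and 6-OHDA libraries, and 7.84 and 4.56 FPKM in the control and SP colonies. It was lower with SP by a log2 difference of -0.67 and lower after 6-OHDA by -0.37. With a pseudocount of 5 the 6-OHDA difference of Abcg1 was -0.21, within 0.3. The LXR genes themselves did not move past 0.3 with SP, with Nr1h2 at 32.7 FPKM in control and 32.2 in SP colonies, and Nr1h3 at 2.61 and 2.19.

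Of 84 other genes of sterol and fatty acid metabolism, 83 were listed in the files. With SP, 14 of 74 compared were higher and 10 lower, with a median of -0.043, and the shares of all genes, 11.7% higher and 19.8% lower, stand beside this and the counts of the lists that follow. The 9 other sterol and isoprenoid enzymes had 3 higher and none lower. Acat1, the mitochondrial thiolase, was at 30.1 and 27.2 FPKM in control and SP colonies. The 9 other SREBP regulators had none higher and 2 lower with SP, Mbtps1, the protease that makes the first cut in SREBP (58.9 and 45.4 FPKM, -0.37), and Rnf139, a ubiquitin ligase of the endoplasmic reticulum (14.9 and 11.1 FPKM, -0.39). Insig2, the second INSIG gene, was at 22.2 FPKM in control and 18.7 in SP colonies. The ratio of Insig1 to Insig2 per kilobase went from 0.86 to 1.41.

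For sterol uptake and trafficking, 4 of 12 genes were higher and 1 lower with SP, the lower one being Gramd1a, a sterol transfer protein, at 23.9 and 17.0 FPKM. Among 6 compared genes of LXR and sterol esterification, none was higher and 1 lower, by more than 1. Of 21 other fatty acid enzymes, 7 were higher, led by Fads3 and by Pnpla3, a lipid droplet acyltransferase and lipase (1.77 and 4.43 FPKM), and 1 was lower, Hacd3, a dehydratase of fatty acid elongation (79.0 and 52.8 FPKM). Glycerolipid and droplet genes had 1 of 7 lower, Dgat2, which makes triglyceride (10.8 and 7.04 FPKM, -0.55). Fatty acid oxidation had 4 of 10 lower and none higher. There Cpt1a, which brings fatty acids into mitochondria, was at 58.8 and 38.5 FPKM in control and SP colonies, and Pdk4, a kinase that shuts off pyruvate oxidation, at 2.48 and 0.98.

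After 6-OHDA, 10 of 70 other pathway genes were higher and 3 lower, with a median of 0.080, where 15.8% of all genes were higher and 8.35% lower. Ch25h, which makes 25-hydroxycholesterol, an oxysterol that blocks SREBP processing, was at 50.4 FPKM in the sorted control library, 22.1 after 6-OHDA, 0.70 in control colonies and 0.44 in SP colonies. It was the only one of them with a fall above 1 after 6-OHDA (-1.16), and it was nearly absent from colonies. Acat1 (0.54) and Soat1, which esterifies cholesterol (0.55), had the largest rises. In control colonies against sorted cells, 45 of 75 were higher and 16 lower, beside 55.7% and 26.6% of all genes, with a median of 0.54 beside the shift of 0.45. Pdk4 was at 69.1 FPKM in the sorted control and 2.48 in control colonies, and Elovl4, an elongase of very long chains, at 19.5 and 3.50.

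Markers of other lists also differed between control and SP colonies, some higher and some lower. Of 12 proliferation markers, 11 were higher in SP colonies and the list summed to 257, 281, 379 and 568 FPKM in the order sorted control, 6-OHDA, control colonies and SP colonies, with Pcna the most abundant and none at 0. Pcna made up most of the sums of sorted cells, at 232, 222, 157 and 182 FPKM in the same order. It was the 1 marker of the list lower in control colonies than in the sorted control, where 11 were higher. Top2a, a topoisomerase of dividing cells, was at 2.59 and 9.68 FPKM in the sorted control and 6-OHDA libraries, and 40.0 and 70.9 FPKM in the control and SP colonies. Of 10 basal markers, 6 were higher with SP and 1 lower, and they summed to 6169 FPKM in control and 12954 in SP colonies. Krt5, the partner keratin of Krt14, was at 1888 and 4579 FPKM. Of 12 luminal markers, 6 were lower with SP and none higher, with sums of 1679 and 1592 FPKM led by Krt8. The 12 adipocyte markers summed to 44.9 FPKM in control and 5.50 in SP colonies, led in control colonies by Fabp4, a fatty acid carrier, at 34.4 against 1.05, while 6 of them, Plin1 and Cidec included, were listed at 0 in SP colonies. The part of proliferation, of the mix of basal and luminal cells or of these adipocyte transcripts in the SP differences was not tested. In bulk samples fewer cells of a type and less RNA per cell cannot be told apart.

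The remaining lists summed as follows in control and SP colonies. Fibroblast markers gave 40.1 and 12.7 FPKM, with 4 of 5 compared lower and Col1a2 the most abundant in control colonies. Leukocyte markers gave 3.26 and 3.72, led by Cd68, with Ptprc listed at 0 in both. Sebaceous markers, from lipid-making skin gland cells, share 2 of their 8 genes with the pathway lists and gave 38.5 and 67.3, nearly all of it the keratin Krt79 (33.1 and 61.7), while the wax synthase Awat1 and the sebocyte acyltransferase Dgat2l6 were listed at 0 in SP colonies and Awat2 was at 0.29. Immediate early and heat shock genes gave 1436 and 1011, with 6 of 10 lower and 1 higher. Their part in the SP differences was not tested.

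In the 6-OHDA library, fibroblast markers summed to 382 FPKM against 185 in the sorted control, with 7 of 9 higher, none at 0 and Dcn the most abundant. Adipocyte markers summed to 390.3 against 224, of which Fabp4 made up 374 and 210.2, while Adipoq was at 0.12 and 0.18. Of 11 proliferation markers compared, 10 were higher, where 15.8% of all genes were higher and 8.35% lower. Luminal markers had 1 of 11 higher and 4 lower, basal markers 1 of 10 higher and 1 lower, endothelial markers 2 of 10 higher, leukocyte markers 1 of 4 lower, sebaceous markers 2 of 3 higher and early response genes 5 of 10 lower. Their part in the 6-OHDA differences was not tested. Between sorted cells and control colonies, 10 of 10 endothelial markers and 9 of 10 early response genes were lower, 10 of 12 luminal and 11 of 12 proliferation markers were higher, beside 55.7% of all genes higher and 26.6% lower, and the effect of growth in the gel on the 35 genes cannot be told apart from a change in cell types.

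Promoter windows of RefSeq, 250 bases before to 50 after each start on GRCm38.p6, were read for 27 of the 35 genes (34 windows). No entry was present for Fdps, Fdft1, Sqle, Stard4, Scd1, Scd2, Fads1 and Abcg1. The only window of Acaca, chr11:84195188-84195487, lies inside the gene (chr11:84129635-84401651), so the start of the gene was not read. A gene with several windows was counted when any of them held a match, among all genes as well. Matches to 4 motifs were counted on both strands, and none shared bases with a match of another motif in these windows. The NF-Y box CCAAT was found in 21 of 27 genes, beside 42.2% of the 13833 listed genes with a window, and in 14 of 15 sterol enzymes, the exception being Acat2. The Sp1 box GGGCGG was found in 23 of 27 genes and 14 of 15 sterol enzymes, beside 60.0%. The E-box CACGTG was found in 6 of 27, beside 10.4%. The SREBP element TCACNCCAC, where N is any base, was found in 1 of 27, Hmgcs1, beside 1.44%. Of the 7 fatty acid enzymes with a window, 4 held an NF-Y box and 4 an Sp1 box. A match is only a run of letters, and no match says nothing of the factor.

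The 250 bases before the start are shown for the 4 sterol genes Idi1, Hmgcs1, Msmo1 and Mvk, which were higher together in SP colonies, and for Abca1, which was lower. Capitals mark SREBP elements, NF-Y boxes (CCAAT, or ATTGG on the other strand) and E-boxes. They lie at chr13:8885356-8885605 on the plus strand (Idi1), chr13:119690101-119690350 on the plus strand (Hmgcs1), chr8:64733579-64733828 on the minus strand (Msmo1), chr5:114444019-114444268 on the plus strand (Mvk) and chr4:53159896-53160145 on the minus strand (Abca1).
Idi1: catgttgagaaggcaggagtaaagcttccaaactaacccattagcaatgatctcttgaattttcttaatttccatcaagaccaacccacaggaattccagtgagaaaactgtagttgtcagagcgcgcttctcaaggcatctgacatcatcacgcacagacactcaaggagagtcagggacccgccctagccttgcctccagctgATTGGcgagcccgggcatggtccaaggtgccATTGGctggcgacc
Hmgcs1: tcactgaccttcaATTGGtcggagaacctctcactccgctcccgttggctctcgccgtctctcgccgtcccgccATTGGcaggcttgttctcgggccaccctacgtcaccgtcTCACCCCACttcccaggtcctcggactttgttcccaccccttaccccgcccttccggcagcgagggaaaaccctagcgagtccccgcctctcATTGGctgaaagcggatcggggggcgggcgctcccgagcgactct
Msmo1: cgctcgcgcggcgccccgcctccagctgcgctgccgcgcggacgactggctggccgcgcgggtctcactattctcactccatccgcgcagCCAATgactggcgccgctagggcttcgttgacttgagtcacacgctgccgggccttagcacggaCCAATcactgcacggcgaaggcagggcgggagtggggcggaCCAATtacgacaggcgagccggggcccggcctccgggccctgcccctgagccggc
Mvk: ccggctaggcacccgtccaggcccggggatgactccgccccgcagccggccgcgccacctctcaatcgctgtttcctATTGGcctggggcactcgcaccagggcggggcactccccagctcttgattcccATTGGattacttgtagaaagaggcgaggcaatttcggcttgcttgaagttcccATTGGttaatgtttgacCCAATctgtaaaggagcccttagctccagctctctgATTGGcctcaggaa
Abca1: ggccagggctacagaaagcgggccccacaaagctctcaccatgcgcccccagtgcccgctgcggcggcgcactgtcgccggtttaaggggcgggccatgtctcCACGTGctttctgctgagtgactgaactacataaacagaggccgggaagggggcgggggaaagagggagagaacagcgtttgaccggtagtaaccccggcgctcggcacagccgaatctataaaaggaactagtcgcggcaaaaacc
The windows of Idi1, Hmgcs1, Msmo1 and Mvk hold 2, 4, 3 and 5 NF-Y boxes over their 300 bases, the 50 after the start included, and that of Abca1 holds none but has 1 E-box. These genes were picked and the boxes do not sort with direction, since Acat2, higher with SP, has no NF-Y box and Srebf1, lower with SP, has 1 in 2 of its 3 windows. In Hmgcs1 the SREBP element TCACCCCAC spans bases 137 to 129 before the start, between NF-Y boxes on either side.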

How the data were processed

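Total RNA was extracted with RNAiso plus and sequenced from mRNA libraries (DNBSEQ), 1 per condition. The authors deposited FPKM values with 2 decimals for 17630 genes, and the submitters' processing notes name Bowtie2, RSEM 1.3.1, DESeq2 1.4.5 and the build mm10. NCBI Gene identifiers were matched to symbols in the RefSeq table of GRCm38.p6 for 17512 genes, and the 118 others stayed in the comparisons. A pseudocount of 1 was added before the log2 transform, a gene entered a comparison when its 2 FPKM values averaged 1 or more, and it was counted when the difference exceeded 0.3 in size. The calculations used Python 3, pandas and numpy and were tested on simulated data. The members and gene lists were chosen with earlier results of these data known. All 35 genes are named. Of each other list the rule names the most abundant gene and, per comparison, the 2 largest rises and 2 largest falls past 0.3, and not every gene it covers is reported here, the 1 lower with SP in the LXR list among those left out. Genes named outside the rule, such as Insig2, Nr1h2, Nr1h3, Cidec, Plin1, Ptprc, Adipoq and the sebocyte enzymes, were chosen after their values were seen. Alternatives were pseudocounts of 0.1 and 5, no filter, a mean of at least 5, rescaling to the same sum with and without the 100 most abundant genes, median ratio scaling, quantile normalization, a threshold of 1 and the mean in place of the median.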

Additional observations from a re-analysis of the deposited data

How the results depend on the processing

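Under the 6 other scalings and pseudocounts, 30 of 30 genes past 0.3 with SP stayed past it on the same side in 5 settings and 29 in the 1 with a pseudocount of 5, and none of the 30 changed sign. After 6-OHDA, of 8 genes past 0.3, 4 stayed past it with a pseudocount of 5, 6 with quantile normalization and 7 with median ratio scaling. In control colonies against sorted cells, the sign changed among genes past 0.3 for Srebf2 (-0.041) and Acaca (-0.056) with median ratio scaling and for Acaca (-0.018) with quantile normalization. Of genes within 0.3, Sqle (-0.26), Cyp51 (-0.39), Scap (-0.20) and Abca1 (-0.23) also fell below 0 with median ratio scaling, as did Cyp51 with quantile normalization (-0.12), the same sum (-0.078) and the sum without the abundant genes (-0.051), and the genes lower became 2 with median ratio scaling. That scaling sets the median of all genes to about 0, which is its construction. The median of the 35 genes in that comparison was 1.68 and 1.07 with pseudocounts of 0.1 and 5, 1.34 with the same sum, 1.36 without the abundant genes, 1.07 with median ratio scaling and 1.06 with quantile normalization. After 6-OHDA, a pseudocount of 5 gave 3 higher and 1 lower, and quantile normalization gave 4 higher and 2 lower. A mean FPKM of at least 5, which 25 of the 35 genes passed, gave 4 higher and 1 lower in that comparison. A threshold of 1 gave 0 higher and 0 lower after 6-OHDA, 10 higher and 0 lower with SP, and 0 lower in control colonies. The mean of the 35 genes with SP was 0.64 in place of the median of 0.76. Other causes were not tested.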

Other observations

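Of 10 genes often used as references, 4 were higher in SP colonies than in control colonies and none was lower, with a median of 0.27. Gapdh, a glycolytic enzyme, was at 1299 FPKM in the sorted control library, 1144 after 6-OHDA, 1316 in control colonies and 3177 in SP colonies. Pgk1, another glycolytic enzyme, was at 203 and 217 FPKM in the sorted control and 6-OHDA libraries, and 261 and 1207 FPKM in the control and SP colonies. Both were singled out after their values were seen. The SP library alone was high for Pgk1, and the rise of a sterol enzyme given relative to Gapdh would be smaller or reversed, since Gapdh was 2.41 times higher in SP than in control colonies.

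With 1 library per condition, a difference between libraries cannot be told apart from variation among mice, cultures or sorts. FPKM is relative to the whole library, and values near 1 FPKM in sorted cells, such as those of Tm7sf2, Dhcr7 and Mvk, rest on few fragments. Transcript levels were measured here, and neither SREBP processing nor lipid was.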
